A study of Mus musculus with 6 samples.

Results

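The genes described here are 38 mouse genes of the peroxisome. They were found by symbol in the deposited table of each library, as 38 of 56884 gene IDs, and all 38 passed the filter on low values that left 15426 genes for testing. They fall into 13 peroxins, the proteins that build, fill and divide peroxisomes, and 25 enzymes and transporters of peroxisomal lipid metabolism.

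RNA was sequenced from a mouse stromal vascular fraction (SVF) cell line of subcutaneous white adipose tissue (scWAT), a source of adipocyte precursors. The cells had been transduced with retrovirus to overexpress the K382Q or the K382R mutant of PPARγ2, the adipocyte form of a nuclear receptor that drives fat cell differentiation. Both replace the same lysine, glutamine as a mimic of its acetylated state and arginine as a mimic of its deacetylated state, and the question was how this site bears on beige adipocyte differentiation. Each mutant had 3 libraries, all from day 2. Cells of both mutants were selected with puromycin and received the same induction medium with isobutylmethylxanthine, indomethacin, dexamethasone, insulin, the thyroid hormone T3 at 1 nM and rosiglitazone, a PPARγ agonist, at 0.5 µM. No untreated, wild-type or empty-vector library was analysed here, so every direction below is that of K382Q relative to K382R. The labels call the libraries biological replicates without saying whether they come from separate transductions, lines or passages. The study mentions different knockdown lines or passages for some experiments, but does not say so of these libraries, and p-values then measure the spread between them.

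Peroxisomes shorten very long, branched and dicarboxylic fatty acids by β-oxidation, shorten phytanic acid by its carboxyl carbon in α-oxidation, and carry out the first steps of ether lipid (plasmalogen) synthesis. Their enzymes are made in the cytosol and imported as folded proteins by receptors that dock at the membrane and are then pulled back out, while another set of peroxins inserts the membrane proteins. In brown fat, peroxisomes multiply in the cold. PPARα and PPARγ bind with RXR to a direct repeat called DR1, and *Ehhadh* is a long-known PPAR target in liver.

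With PPARγ2 K382Q, most genes of peroxisomal fatty acid oxidation were higher than with PPARγ2 K382R, while the receptor gene *Pex5* and the ether lipid gene *Far1* were lower. A gene was called at a Benjamini-Hochberg adjusted p-value of limma under 0.05. By this rule 24 of the 38 genes differed, a share of 63.2%, where the same rule called 48.1% of all genes tested. Of the 24, 18 were higher in K382Q (47.4% of the 38, against 11.1% of all genes) and 6 were lower (15.8%, against 36.9%). Past a 2-fold change were *Ehhadh*, *Acaa1b* and *Acox2*, all higher, and *Far1*, lower, 4 genes (3.88% of all genes tested passed both thresholds, 1.27% higher and 2.61% lower). The 3 libraries of K382Q lay above all 3 of K382R in 20 of the 38 genes and below them in 8. Of all genes tested, 57% did not overlap, 14.1% lying above and 42.8% below.

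TPM is a share of the transcripts in a library, and the median log2 fold change of all genes tested was -0.14. The median of the 38 genes was 0.095, and 31 of them lay above the median of all genes. With median-ratio scaling, which sets the median gene to 0.0032, 23 were called higher and 3 lower (the scaling called 40.3% of all genes, 19.8% higher and 20.4% lower), and the median of the 38 became 0.25. Past 2-fold were then 3, all higher, where 3.78% of all genes were (1.86% higher and 1.92% lower). Of the 25 enzymes and transporters, 15 were called higher (60%, against 11.1% of all genes) and 2 lower (8%, against 36.9%), at a median log2 fold change of 0.22. With median-ratio scaling 19 were higher (76%, against 19.8% of all genes) and 2 lower, at a median of 0.37. Of the 13 peroxins, 3 were called higher and 4 lower at a median of -0.065, and with median-ratio scaling 4 were higher and 1 lower at a median of 0.086. The share of peroxins called, 53.8% by TPM and 38.5% with median-ratio scaling, was near that of all genes (48.1% and 40.3%). The medians of the enzymes and the peroxins differed by 0.29, and by 0.28 with median-ratio scaling.

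**Figure D1:**
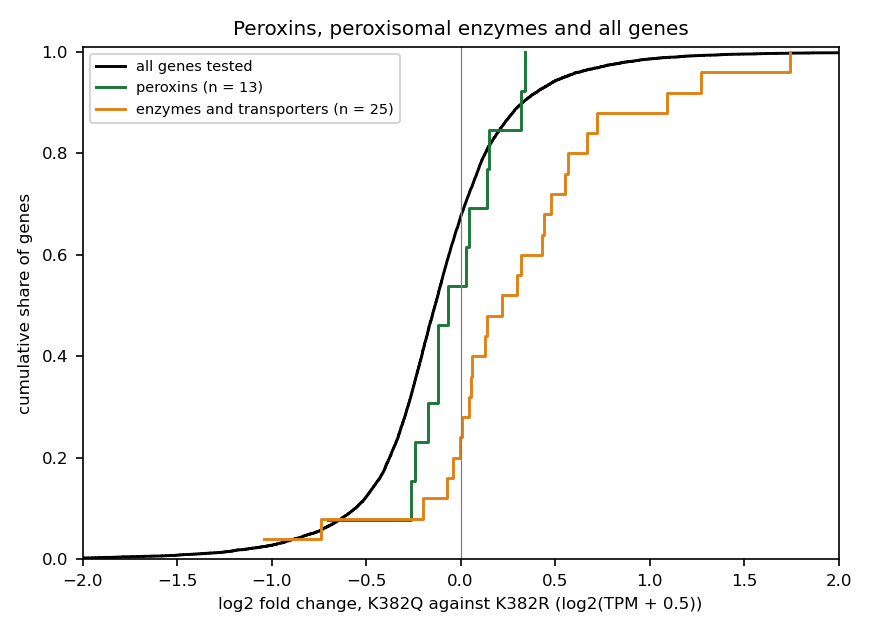
Cumulative share of genes (vertical axis) against the log2 fold change of K382Q over K382R on the log2(TPM + 0.5) scale (horizontal axis), for all genes tested, the 13 peroxins and the 25 enzymes and transporters. The curve of the enzymes lies to the right of the other curves over most of its range (median 0.22), and the peroxins (median -0.065) lie nearer to all genes (median -0.14).

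Summed over the 38 genes, the TPM was 3571 ± 20.4 (SD, n = 3) in K382Q and 3012 ± 13.4 in K382R. The enzymes and transporters accounted for this difference, with 2632 ± 18.6 in K382Q and 2035 ± 9.45 in K382R, whereas the peroxins summed to 939 ± 4.59 and 978 ± 4.05. In bulk RNA, more cells of a type and more RNA per cell cannot be told apart. The 14 adipocyte markers summed to a TPM of 54960 to 58810 in K382Q and 45130 to 46450 in K382R, most of it from *Fabp4*, the fatty acid binding protein of adipocytes. Of the 13 that were tested, 6 were called higher (46.2%, against 11.1% of all genes), *Cd36*, *Cfd* and *Slc2a4* among them, and 2 were lower (15.4%, against 36.9%), one of them *Adipoq*, or 9 higher and 1 lower with median-ratio scaling, while *Lep* was listed at 0 in every library. The 9 precursor markers summed to 688 to 754 in K382Q and 1060 to 1112 in K382R, and the 5 that were tested, *Pdgfra*, *Pdgfrb*, *Ly6a*, *Itgb1* and *Zfp423*, were all lower under both scalings (36.9% of all genes were lower by TPM), with *Dpp4* at 0. The part of either shift in the results below was not tested. Of the leukocyte markers, *Adgre1* and *Cd3e* were listed at 0 in all 6 libraries and *Itgam* and *Ptprc* in 5 of them, *Csf1r* reached at most 0.144 TPM, and *Cd68*, the only one of the list that was tested, had 3.44 to 4.66 TPM in K382Q and 3.17 to 5.11 in K382R and was not called.

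Across all genes, the mutants separated along the first principal component, with 61.3% of the variance. The aligned length was 5.95 to 7.50 Gb per library in K382Q and 6.53 to 8.15 Gb in K382R. *Pparg* itself had a TPM of 1104 to 1333 in K382Q and 1590 to 1632 in K382R, which sums the endogenous gene and any reads of the vector that map to it. Of the 1000000 TPM of a library, transcripts of the mitochondrial genome took 44440 ± 4597 in K382Q and 27310 ± 735 in K382R. Nuclear genes thus shared a slightly smaller total in K382Q, and the part of this in the median of all genes was not tested.

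**Figure D2:**
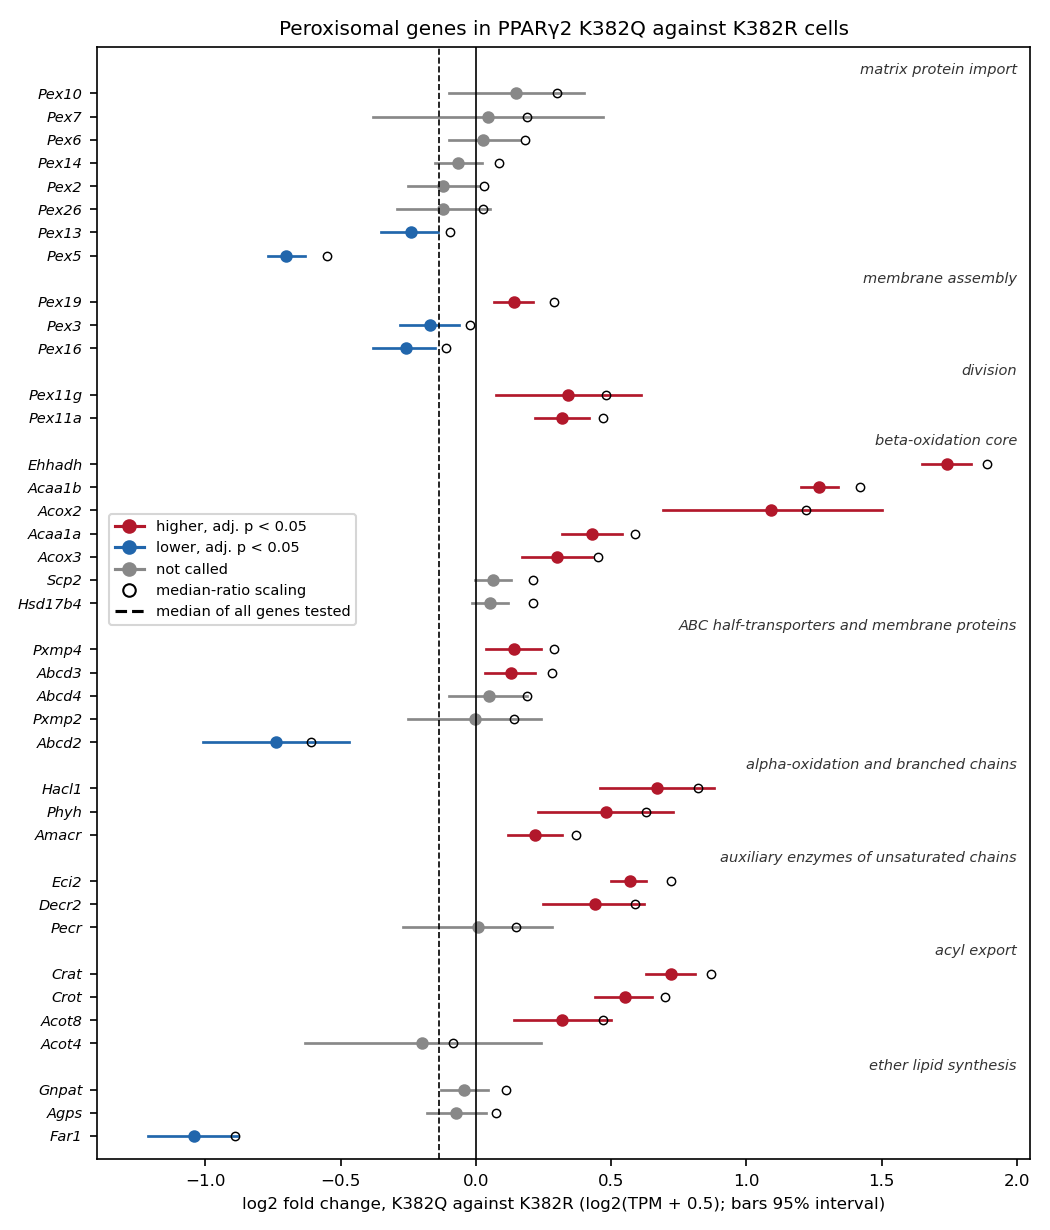
Log2 fold change of each of the 38 genes, K382Q over K382R on the log2(TPM + 0.5) scale (horizontal axis), grouped by role; filled points are TPM as deposited with 95% intervals, open circles are median-ratio scaling and the dashed line is the median of all genes at -0.14. *Ehhadh* (1.74), *Acaa1b* (1.27) and *Acox2* (1.09) stand farthest to the right and *Far1* (-1.04), *Abcd2* (-0.74) and *Pex5* (-0.70) farthest to the left.

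A search for DR1, which is 2 copies of AGGTCA with 1 base between them, was made on both strands in the 5000 bases to each side of the start of every gene tested, in GRCm39, with at most 1 mismatch over the 12 fixed bases. It found a match at 12 of the 38 genes (31.6%), where 20.2% of all genes tested had one. An exact match was found at 1 of the 38, *Far1*, and at 2.26% of all genes. Of the genes with a match, *Acaa1b*, *Acox2*, *Acot8*, *Amacr* and *Crat* were called higher in K382Q by TPM. *Far1*, *Pex5*, *Pex13* and *Pex16* were called lower, and *Pex14*, *Pex26* and *Pxmp2* were not called. The matches within 1000 bases of a start, and the exact one, are printed here because *Acaa1b*, *Acox2* and *Far1* are among the genes past 2-fold. Each is written 5′ to 3′ on the strand of the repeat with 8 bases to either side, and capitals mark the repeat. Positions are those of the whole stretch printed, and distances are from the middle of the repeat.
Acaa1b: caagtgggAGGCCAGAGGTCAgatcccca
Acox2: tttgaactAGGTCTCAGGTCAcaaagatg
Acot8: cacggcagGGGTCAGAGGTCActgggtaa
Far1: atttctgaAGGTCACAGGTCAttaggcta

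The *Acaa1b* stretch, chr9:118987096-118987124 on the plus strand, lay 949 bases before the start of the gene, and the *Acox2* stretch, chr14:14210312-14210340 on the minus strand, lay 94 bases before it, both outside any annotated gene. The *Acot8* stretch, chr2:164647136-164647164 on the minus strand, lay 348 bases before the start given in the deposited tables, in a region that GENCODE release 39 assigns to untranslated exons of *Acot8* and *Zswim3*. The *Far1* stretch with the exact match, chr7:113109042-113109070 on the minus strand, lay 3985 bases before the deposited start and inside the longer *Far1* gene of GENCODE, outside its exons. *Ehhadh*, which differed most, had no match within its window. In the RefSeq promoter table (GRCm38.p6, 250 bases before to 50 after a start), which held 30 of the 38 genes, a repeat with at most 2 mismatches was found at 2 of the 30, *Acox2* and *Acot4*, and at 4.4% of all genes in the table (3.86% of its promoters). With 1 mismatch or fewer none of the 30 had one, against 0.644% of all genes. The *Acox2* promoters of that table begin at other starts and do not hold the *Acox2* stretch printed above. A match describes the letters of the sequence only.

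In the core of peroxisomal β-oxidation, 5 of 7 genes (71.4%) were called higher in K382Q and none lower, where 11.1% of all genes were called higher and 36.9% lower. In all 7 the 3 libraries of K382Q lay above the 3 of K382R, as in 14.1% of all genes. *Ehhadh* (ENSMUSG00000022853.8, chr16:21580037-21606557, minus strand) encodes the L-bifunctional enzyme, which hydrates and then dehydrogenates the acyl-CoA and is needed for dicarboxylic fatty acids. Its TPM was 93.0, 89.9 and 92.9 in K382Q and 26.9, 26.4 and 28.3 in K382R. The mutants were far apart, with little spread within either. The log2 fold change was 1.74 (SE 0.0398, 95% interval 1.65 to 1.83, adjusted p = 2.51e-07), a ratio of mean TPM of 3.38, and ranked 35 from the top among the 15426 genes.

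*Acaa1b* (ENSMUSG00000010651.5, chr9:118977091-118986161, minus strand) and *Acaa1a* (ENSMUSG00000036138.17, chr9:119168742-119179365, plus strand) are neighbouring copies of the 3-ketoacyl-CoA thiolase gene, the last step of the cycle. *Acaa1b* had a TPM of 347, 366 and 347 in K382Q and 146, 148 and 144 in K382R. No K382Q library came near a K382R library, and the log2 fold change was 1.27 (SE 0.0316, 95% interval 1.20 to 1.34, adjusted p = 2.93e-07). *Acaa1a* had a TPM of 172, 187 and 175 in K382Q and 126, 129 and 139 in K382R. It was higher too, without overlap but by less, with a log2 fold change of 0.43 (SE 0.0474, adjusted p = 0.000204).

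The deposited split between the thiolase copies was not the same in the mutants. *Acaa1b* had 2.02, 1.96 and 1.98 times the TPM of *Acaa1a* in the libraries of K382Q and 1.16, 1.14 and 1.04 times in those of K382R. This ratio was formed after the values were seen and is given without a test. Their coding sequences, 1272 bases each, are 96.5% identical with an identical run of up to 327 bases, so that reads can be shared and the split between the copies is uncertain. Their sum does not depend on that split, and it was 531 ± 18.9 TPM in K382Q and 278 ± 5.16 in K382R.

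The acyl-CoA oxidases carry out the first step. *Acox2* (ENSMUSG00000021751.14, chr14:14210420-14244262, plus strand), which acts on branched chains and bile acid intermediates, was a low gene. Its TPM was 4.33, 5.71 and 4.65 in K382Q and 1.49, 2.41 and 2.25 in K382R. The lowest K382Q library was above the highest K382R library, but the spread within a mutant was wide for its level, and the log2 fold change was 1.09 (SE 0.174, 95% interval 0.69 to 1.50, adjusted p = 0.00136). It was below 2-fold without K382Q replicate 2 (0.99) or K382R replicate 1 (0.93), and with a pseudocount of 1 (0.96). *Acox3*, the pristanoyl-CoA oxidase, was higher by 0.30 (adjusted p = 0.00295). *Hsd17b4*, the D-bifunctional enzyme of branched and very long chains, and *Scp2*, whose gene encodes a thiolase and a sterol carrier, showed no overlap between the mutants either. Their log2 fold changes of 0.054 (95% interval -0.015 to 0.12) and 0.062 (-0.0046 to 0.13) were not called (adjusted p = 0.173 and 0.113). With median-ratio scaling each was 0.21 and called (adjusted p = 0.000834 and 0.00144).

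**Figure D3:**
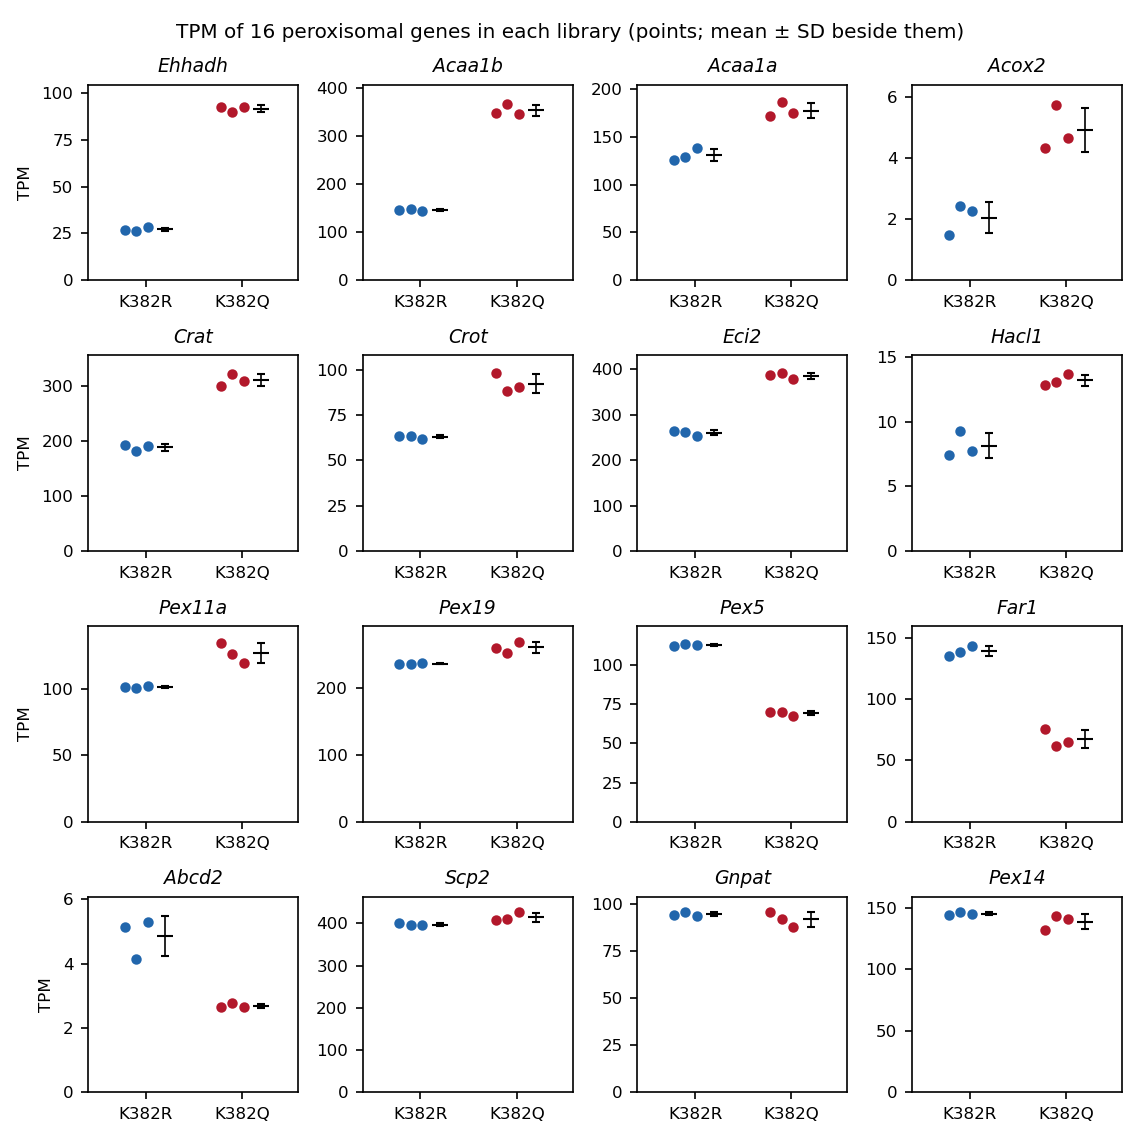
TPM (vertical axes, each from 0) of 16 of the genes in each of the 3 libraries of K382R (blue) and of K382Q (red), with the mean and SD beside the points. *Ehhadh*, *Acaa1b*, *Crat*, *Eci2*, *Pex5* and *Far1* show mutants far apart for their spread, and *Scp2*, *Gnpat* and *Pex14* show mutants close together.

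Other enzymes feed branched and unsaturated chains into β-oxidation. All 3 genes of α-oxidation and branched chains were called higher (11.1% of all genes), each with K382Q above K382R without overlap (14.1% of all genes). *Hacl1*, the lyase that cleaves the 2-hydroxy intermediate of phytanic acid, had a TPM of 12.8, 13.1 and 13.7 in K382Q and 7.46, 9.25 and 7.70 in K382R. The K382Q libraries were close together and above all of K382R, with a log2 fold change of 0.67 (SE 0.0892, adjusted p = 0.000552). *Phyh*, the phytanoyl-CoA hydroxylase that precedes it, was higher by 0.48 (adjusted p = 0.00764), and *Amacr*, the racemase that makes branched acyl-CoAs fit for oxidation, by 0.22 (adjusted p = 0.00423).

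Of the 3 auxiliary enzymes of unsaturated chains, 2 (66.7%, against 11.1% of all genes) were called higher. *Eci2*, an enoyl-CoA isomerase that moves double bonds, was among the most abundant of the 38 genes, with a TPM of 388, 391 and 379 in K382Q and 264, 263 and 254 in K382R. The mutants did not overlap, and the log2 fold change was 0.57 (SE 0.0287, adjusted p = 4.72e-06). *Decr2*, the dienoyl-CoA reductase, was higher by 0.44 (adjusted p = 0.00264). *Pecr*, the trans-enoyl-CoA reductase, had overlapping mutants and a log2 fold change of 0.0078 (95% interval -0.27 to 0.28, adjusted p = 0.965).

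Chains shortened in the peroxisome leave it as carnitine esters or as free acids, and 3 of the 4 genes of this step (75%, against 11.1% of all genes) were called higher. *Crat*, the carnitine acetyltransferase of peroxisomes and mitochondria, had a TPM of 301, 324 and 311 in K382Q and 194, 182 and 191 in K382R. The libraries of K382Q were all well above those of K382R, and the log2 fold change was 0.72 (SE 0.0378, adjusted p = 5.56e-06). *Crot*, the carnitine octanoyltransferase, was higher by 0.55 (adjusted p = 5.05e-05), and *Acot8*, a broad acyl-CoA thioesterase, by 0.32 (adjusted p = 0.0101). *Acot4*, a thioesterase of dicarboxylic acyl-CoAs, was the lowest of the 38 genes, with mean TPM of 1.43 in K382Q and 1.70 in K382R, overlapping mutants and a log2 fold change of -0.20 (95% interval -0.63 to 0.24, adjusted p = 0.426).

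Of the 5 ABC transporters and membrane proteins, 2 were called higher and 1 lower, a called share of 60% where 48.1% of all genes were called. *Abcd2* (chr15:91030074-91076002, minus strand), an ABC transporter of very long and polyunsaturated acyl-CoAs, had a TPM of 2.66, 2.77 and 2.66 in K382Q and 5.14, 4.15 and 5.30 in K382R. Every K382Q library was below every K382R library, with a log2 fold change of -0.74 (SE 0.115, 95% interval -1.01 to -0.47, adjusted p = 0.00124). *Abcd3*, the transporter of dicarboxylic and branched acyl-CoAs and the most abundant of the group, was called higher by 0.13 (adjusted p = 0.0353).

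*Pxmp4*, a peroxisomal membrane protein, had a TPM of 75.2, 69.3 and 68.6 in K382Q and 64.2, 64.1 and 65.4 in K382R. Its libraries did not overlap, and the log2 fold change was 0.14 (SE 0.0429, adjusted p = 0.0323). Neither call held when single libraries were left out, *Abcd3* without K382Q replicate 1 or 3 or any of the K382R replicates (adjusted p up to 0.109) and *Pxmp4* without K382Q replicate 1 or any of the K382R replicates (up to 0.0872). *Abcd4*, a relative that works in lysosomal cobalamin transport, and *Pxmp2*, a channel protein, had log2 fold changes of 0.047 (95% interval -0.10 to 0.19) and -0.0048 (-0.25 to 0.24) and were not called.

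In ether lipid synthesis 1 of 3 genes was called, lower (33.3%, near the 36.9% of all genes called lower). *Far1* (ENSMUSG00000030759.17, chr7:113113041-113170718, plus strand) reduces fatty acyl-CoA to the fatty alcohol that the pathway needs and sets its rate. Its TPM was 75.9, 61.9 and 65.0 in K382Q and 136, 139 and 144 in K382R. All K382Q libraries were far below those of K382R, with a log2 fold change of -1.04 (SE 0.0713, 95% interval -1.21 to -0.88, adjusted p = 1.98e-05). It was -0.98 without K382Q replicate 2, and -0.89 with median-ratio scaling, which are below 2-fold.

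*Gnpat* and *Agps*, whose enzymes act inside the peroxisome and build the ether bond, were not called. Their log2 fold changes were -0.042 (95% interval -0.13 to 0.046) and -0.073 (-0.18 to 0.039), adjusted p = 0.403 and 0.256, and both turned positive with median-ratio scaling, at 0.11 (adjusted p = 0.0428) and 0.076 (adjusted p = 0.239). The TPM of *Far1* was 0.737 ± 0.0612 of that of *Gnpat* in K382Q and 1.48 ± 0.0540 in K382R, a ratio that does not depend on the scaling of a library.

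Among the peroxins of matrix protein import, 2 of 8 (25%, against 48.1% of all genes) were called by TPM, both lower in K382Q, where 36.9% of all genes were lower. With median-ratio scaling 1 was higher and 1 lower. *Pex5* (ENSMUSG00000005069.13, chr6:124373775-124392026, minus strand) is the receptor for most matrix enzymes, which it recognises by the PTS1 signal at their C-terminus. Its TPM was 69.9, 70.2 and 67.7 in K382Q and 112, 113 and 113 in K382R. The libraries of a mutant were nearly equal and the mutants far apart, with a log2 fold change of -0.70 (SE 0.0305, 95% interval -0.77 to -0.63, adjusted p = 2.69e-06), and of -0.55 with median-ratio scaling (adjusted p = 1.1e-05). Relative to *Pex14*, the docking protein to which it binds, it stood at 0.500 ± 0.0265 in K382Q and 0.777 ± 0.00275 in K382R.

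*Pex7*, the receptor for the other import signal, which the products of *Acaa1a*, *Acaa1b*, *Phyh* and *Agps* carry, had overlapping mutants (log2 fold change 0.045, 95% interval -0.38 to 0.47, adjusted p = 0.861). *Pex14* had -0.065 (-0.15 to 0.022, adjusted p = 0.194). *Pex13*, the other docking protein, was lower by TPM (-0.24, adjusted p = 0.00292), but not with median-ratio scaling (-0.094, adjusted p = 0.129). The genes that recycle the receptor were not called, with 0.15 and -0.12 for the ubiquitin ligases *Pex10* and *Pex2*, 0.028 for the ATPase *Pex6* and -0.12 for its membrane anchor *Pex26* (adjusted p from 0.111 to 0.714). With median-ratio scaling *Pex14* (0.086), *Pex2* (0.031) and *Pex26* (0.026) turned positive, and *Pex6* was called higher (0.18, adjusted p = 0.0432).

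Membrane assembly rests on the chaperone *Pex19* and its membrane partners *Pex3* and *Pex16*, and all 3 were called by TPM (48.1% of all genes were), in opposite directions. With median-ratio scaling 1 of 3 was called (33.3%, against 40.3% of all genes). *Pex19*, the most abundant peroxin, had a TPM of 260.1, 253 and 269 in K382Q and 235, 236 and 238 in K382R. The lowest K382Q library was above the highest K382R library, and the log2 fold change was 0.14 (SE 0.031, adjusted p = 0.00702). *Pex16* had a TPM of 107, 121 and 113 in K382Q and 142, 134 and 133 in K382R. It was lower without overlap (log2 fold change -0.26, SE 0.0512, adjusted p = 0.00369), and *Pex3* was lower too (-0.17, adjusted p = 0.0191). Neither was called with median-ratio scaling, at -0.11 (adjusted p = 0.16) and -0.02 (adjusted p = 0.759), and *Pex3* was not called either without K382Q replicate 2 or 3 or K382R replicate 1 (adjusted p up to 0.0608).

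The division peroxins were both called higher (11.1% of all genes). *Pex11a*, which elongates the peroxisome before fission, had a TPM of 135, 126 and 120 in K382Q and 101, 101 and 102 in K382R. The K382R libraries were nearly equal and all below K382Q, with a log2 fold change of 0.32 (SE 0.0446, adjusted p = 0.000708). *Pex11g*, a low gene of the same family, had a TPM of 6.25, 8.13 and 6.85 in K382Q and 4.93, 5.63 and 5.83 in K382R. The lowest library of K382Q was only a little above the highest of K382R (log2 fold change 0.34, SE 0.114, adjusted p = 0.0404), and leaving out any library but K382Q replicate 1 ended the call (adjusted p up to 0.122).

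**Figure D4:**
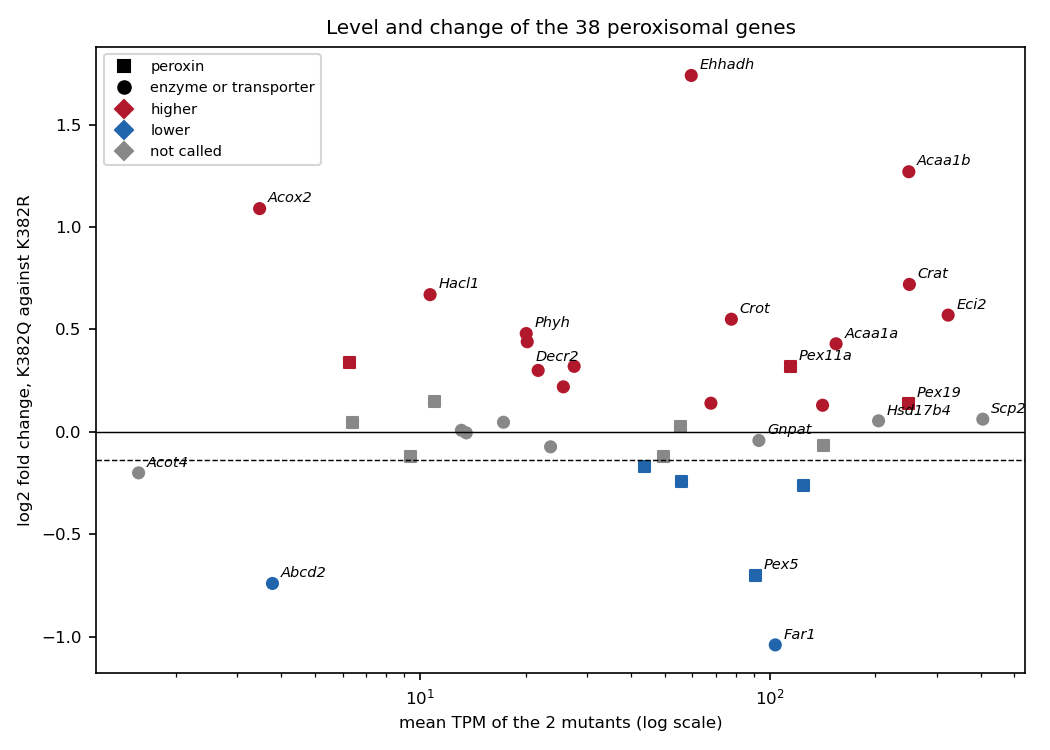
Log2 fold change of K382Q over K382R (vertical axis) against the mean TPM of the mutants (horizontal axis, log scale) for the 38 genes; squares are peroxins, circles are enzymes and transporters, and the dashed line is the median of all genes. Genes called higher are found from low (*Acox2*, mean TPM of 4.90 in K382Q) to high levels (*Eci2*, 386), and *Abcd2*, *Pex5* and *Far1* lie below the other genes.

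The levels of the 38 genes spanned more than 2 orders of magnitude of TPM, from *Acot4* to *Scp2* at 415 ± 10.7 in K382Q and 397 ± 3.44 in K382R, with medians of 49.4 and 49.0. *Eci2* (386 ± 6.39), *Acaa1b* (353 ± 11.0) and *Crat* (312 ± 11.3) came next in K382Q. In K382R the order was *Eci2* (260 ± 5.38), *Pex19* (236 ± 1.24), *Hsd17b4* (201 ± 3.91) and *Crat* (189 ± 5.94), so that *Acaa1b*, at 146 ± 1.85 there, lay near *Pex14* (145 ± 1.17), a difference within their spread. The called differences did not all rest on the same settings: 18 of the 24, which were 15 higher and *Pex5*, *Abcd2* and *Far1* lower, were called under every one of the 15 alternatives tried, and *Pex13*, *Pex3*, *Pex16*, *Pex11g*, *Abcd3* and *Pxmp4* were not. The share of all genes called under every alternative was not worked out, so this count has no background and does not set these genes apart. The annotation places another gene across 25 of the 38, and strand use in quantification is not stated. That gene stood above 10% of the level of the gene described for 9 of them, including *Myd88* at *Acaa1a*, *Btd* at *Hacl1*, *Dolpp1* at *Crat* and *Pus10* at *Pex13*, where reads of the shared stretch cannot be told apart.

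A wider list held 63 other genes of the peroxisome, of which 49 were tested. Of these, 18 were called higher and 12 lower (36.7% and 24.5%, against 11.1% and 36.9% of all genes), and with median-ratio scaling 25 and 5 (51% and 10.2%, against 19.8% and 20.4%). Their median log2 fold change was 0.083, where that of all genes was -0.14. *Depp1* and *Ddo* passed the filter on low values only through K382Q, where they are high, and without them 16 of 47 were called higher and 12 lower, whereas none of the 38 genes above passed in this way. *Cat*, catalase, which breaks down the hydrogen peroxide that the oxidases make, had a TPM of 587, 576 and 573 in K382Q and 365, 378 and 371 in K382R. The mutants did not overlap, with a log2 fold change of 0.64 (adjusted p = 2.34e-06).

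Past 2-fold were *Phyhd1*, a relative of *Phyh*, and *Depp1*, a protein found at peroxisomes that affects autophagy, whose call the filter favoured. *Phyhd1* had a TPM of 41.2, 40.7 and 40.7 in K382Q and 18.5, 16.5 and 15.4 in K382R, with no overlap and a log2 fold change of 1.26 (adjusted p = 5.63e-06). *Depp1* had 11.2, 11.5 and 15.3 in K382Q and was listed at 0 in 2 of the K382R libraries and at 0.105 in the other, and no fold is given for it. Among the genes called lower were *Acsl1* (-0.47), a long-chain acyl-CoA synthetase, *Lonp2* (-0.27), the peroxisomal protease, and *Slc25a17* (-0.26), a carrier of cofactors, and *Slc25a17* was not called with median-ratio scaling (-0.11, adjusted p = 0.0639).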

How the data were processed

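The authors isolated total RNA and prepared libraries from it. They aligned the reads to GRCm39 with HISAT2, quantified genes with StringTie and deposited a gene table per library. The release of the annotation and the use of strand are not given in the sources used here. The deposited coverage is the mean read depth per base (used here only with FPKM, as coverage over FPKM, for the aligned length). The deposited FPKM is scaled to the aligned reads, and the deposited TPM to the same total in every library. Counts were not analysed here, so depth gives no counting interval and precision is that of 3 libraries. Repeated gene IDs (at most 5 per library) were summed.

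A pseudocount of 0.5 was added to TPM, log2 was taken, and the mutants were compared with limma (version 3.58.1, R 4.3.3; lmFit, then eBayes with trend). Genes entered when 3 or more libraries reached a TPM of 0.5, and p-values were adjusted by Benjamini-Hochberg over all 15426. Fold changes on this scale understate the change of low genes. In simulated libraries of 15426 genes, of which 200 were changed, it called 81 of 100 genes changed by 1.0 on the log2 scale and 37 of 100 changed by 0.4. It called 0 in the wrong direction and 8 unchanged genes. The simulation had no shift common to all genes, and far more genes were called in the real libraries (48.1%). These shares therefore check the code and do not give the detection or the false calls in these data. Python 3.11.15, pandas 2.3.3, numpy 2.4.6 and matplotlib 3.10.9 were used besides.

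The members, the role groups and the gene lists were chosen with earlier results of these data known. Values in every library are given for members past 2-fold and for the largest rise and the largest fall among the called members of each role group, and a few more (*Acaa1a*, *Pex11a*) were chosen after their values were seen. Of the wider list, genes past 2-fold and *Cat* are named by rule, a few genes on it are left unreported, and *Acsl1*, *Lonp2* and *Slc25a17* were chosen after their values were seen. The alternatives were median-ratio scaling, quantile normalization, FPKM, a pseudocount of 1 or 0.1, other filters, no intensity trend, the replicate number as a block, and each library left out in turn. The search of 5000-base windows for DR1 was added after seeing the data. Positions are those of the deposited tables, and GENCODE release 39 served for neighbours and coding sequences.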

Additional observations from a re-analysis of the deposited data

How the results depend on the processing

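Median-ratio scaling left 3 of the 38 genes called lower in place of 6. The share of all genes called lower fell with it from 36.9% to 20.4%. The calls lost were those of *Pex13*, *Pex3* and *Pex16*, which quantile normalization ended too. Under these 2 settings the median of the 38 moved from 0.095 to 0.25 and 0.23. That of all genes moved from -0.14 to 0.0032 and -0.0048. With FPKM the median of the 38 was 0.18 and that of all genes -0.052, and *Acox2* (0.96) and *Far1* (-0.95) fell below 2-fold. Leaving out 1 library at a time gave a median of 0.069 to 0.12, where that of all genes was -0.15 to -0.13. *Acox2* fell below 2-fold without K382Q replicate 2 (0.99) or K382R replicate 1 (0.93), and *Far1* without K382Q replicate 2 (-0.98). The difference between the medians of enzymes and peroxins was between 0.25 and 0.33 throughout. Some genes that were not called changed sign. With median-ratio scaling these were *Pex14* (0.086), *Pex2* (0.031), *Pex26* (0.026), *Pxmp2* (0.14), *Gnpat* (0.11) and *Agps* (0.076). With quantile normalization they were *Pex14* (0.043), *Pex2* (0.046), *Pex26* (0.028), *Pxmp2* (0.16), *Gnpat* (0.10) and *Agps* (0.084), with *Pex3*, which had been called, at 0.00081. With FPKM they were *Pex14* (0.019), *Pxmp2* (0.072), *Gnpat* (0.041) and *Agps* (0.0095). Left-out libraries took *Pxmp2* from -0.11 to 0.11, *Pex7* from -0.091 to 0.24, *Pex6* from -0.031 to 0.078 and *Pecr* from -0.12 to 0.079. Both rescalings also called *Pex6*, *Hsd17b4*, *Scp2* and *Abcd4* higher. The cause was not tested. No filter and no intensity trend each ended the calls of *Pex11g*, *Abcd3* and *Pxmp4*.

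Samples with the same replicate number did not deviate together (r = -0.0177, 0.0507 and 0.0223 across genes), so no variation shared by replicate number was seen. The labels do not say whether samples were handled in pairs, and these values cannot show that they were not. With the replicate number as a block, 17 of the 38 genes were called higher, 6 lower and 4 past 2-fold. The call lost was that of *Pxmp4* (adjusted p = 0.0521). The fit without the block called 18 higher, 6 lower and 4 past 2-fold (11.1%, 36.9% and 3.88% of all genes). The share of all genes called with the block was not worked out, so the blocked counts have no background of their own. With the block, the median log2 fold change of the 38 was 0.095 and that of all genes -0.14.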
